A study of Homo sapiens with 9 samples.

Results

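The 32 genes described here code for the glycolytic enzymes that act after hexokinase, for the proteins that regulate the phosphofructokinase step, for the phosphoglucomutases, and for the steps by which pyruvate enters the mitochondrion and becomes acetyl-CoA. They were chosen by gene name and function, with no measured value in the rule, although earlier results of these data were known by then. All 32 were found among the 61552 genes listed for each library. In glycolysis, sugar phosphates are rearranged and phosphorylated, cleaved into triose phosphates and carried through GAPDH, phosphoglycerate kinase, enolase and pyruvate kinase to pyruvate, with a net gain of ATP. Pyruvate is then either reduced to lactate in the cytosol or taken up by the mitochondrial pyruvate carrier and oxidised by the pyruvate dehydrogenase complex, which its own kinases switch off by phosphorylation. 2-DG is a glucose analogue that hexokinase phosphorylates but the next enzyme, GPI, cannot use, so that it blocks the pathway at its entry. Many breast cancer lines make much of their ATP and lactate by glycolysis, and several of these genes are textbook targets of the hypoxia-inducible factors.

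RNA-seq was analysed for MDA-MB-231, an established human triple-negative breast cancer (TNBC) line, after 24 h without 2-DG (the control, given phosphate-buffered saline), with 10 mM 2-DG or with 20 mM 2-DG. Each condition had 3 libraries, all of 1 cell line with no genetic change named in the labels. The labels do not say whether the 3 libraries of a condition came from separate cultures, so p-values measure the spread between these samples, which may be technical. The lactate-treated cells of the study are not analysed here. The deposited values are FPKM (counts scaled by gene length and library total), which allow levels to be compared between genes as far as the gene lengths used are right. Library totals recovered from the FPKM steps ranged from 30974968 to 40843638 reads, so that 1 read on a gene of 1 kb was worth 0.0245 to 0.0323 FPKM. Libraries of 1 condition correlated at r = 0.989 to 0.996 across genes, which are not independent replicates. Libraries of different conditions correlated at r = 0.973 to 0.995, so the ranges overlapped. The pair of 10 mM replicates 1 and 2, at 0.989, was below every pair of a 10 mM and a 20 mM library. Of 4 markers that this mesenchymal line is known for, VIM lay between 243 and 313 FPKM, AXL between 89.9 and 126 FPKM, CD44 between 52.9 and 74.1 FPKM and CAV1 between 61.3 and 105.5 FPKM. CD44 (log2 fold change -0.26 at 10 mM and -0.30 at 20 mM, adjusted p = 0.0209 and 0.00828, limma) and CAV1 (-0.62 and -0.71, adjusted p = 8.1e-05 and 2.2e-05, limma) fell, so 2 of the 4 were lower at each dose. The hormone receptor genes ESR1 and PGR, which this line is known to lack, reached at most 0.00829 and 0.0204 FPKM. The leukocyte marker PTPRC reached at most 0.0327 FPKM, whereas the endothelial marker PECAM1 was present at 0.826 to 1.95 FPKM and was lower at 20 mM 2-DG (log2 fold change -0.51, adjusted p = 0.00318, limma). The part of these markers in the results was not tested.

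The members spanned more than 4 orders of magnitude in level. GAPDH was the most abundant, with a mean over all 9 libraries of 1490 FPKM, followed by ENO1 at 712 FPKM, TPI1 at 429 FPKM and PKM at 426 FPKM. These 4 genes made up 82.9% ± 0.627 (SD, n = 3) of the members' summed FPKM in control cells, 81.9% ± 0.968 at 10 mM and 82.0% ± 0.271 at 20 mM 2-DG. A middle tier held PGAM1 at 117 FPKM, PGK1 at 110 FPKM, PFKP at 88.1 FPKM, ENO2 at 78.8 FPKM, PGM1 at 52.7 FPKM and GPI at 43.6 FPKM. At the low end were PDK4 at 0.790 FPKM, PDK3 at 0.437 FPKM and TIGAR at 0.286 FPKM. PFKFB1, the liver and muscle form of the bifunctional regulator, had 0, 15 and 8 reads in the control libraries, then 8, 2 and 7 at 10 mM and 1, 3 and 6 at 20 mM. It was the only member below the filter on low genes and was not tested, which left 31 members among the 16571 genes tested.

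**Figure D1:**
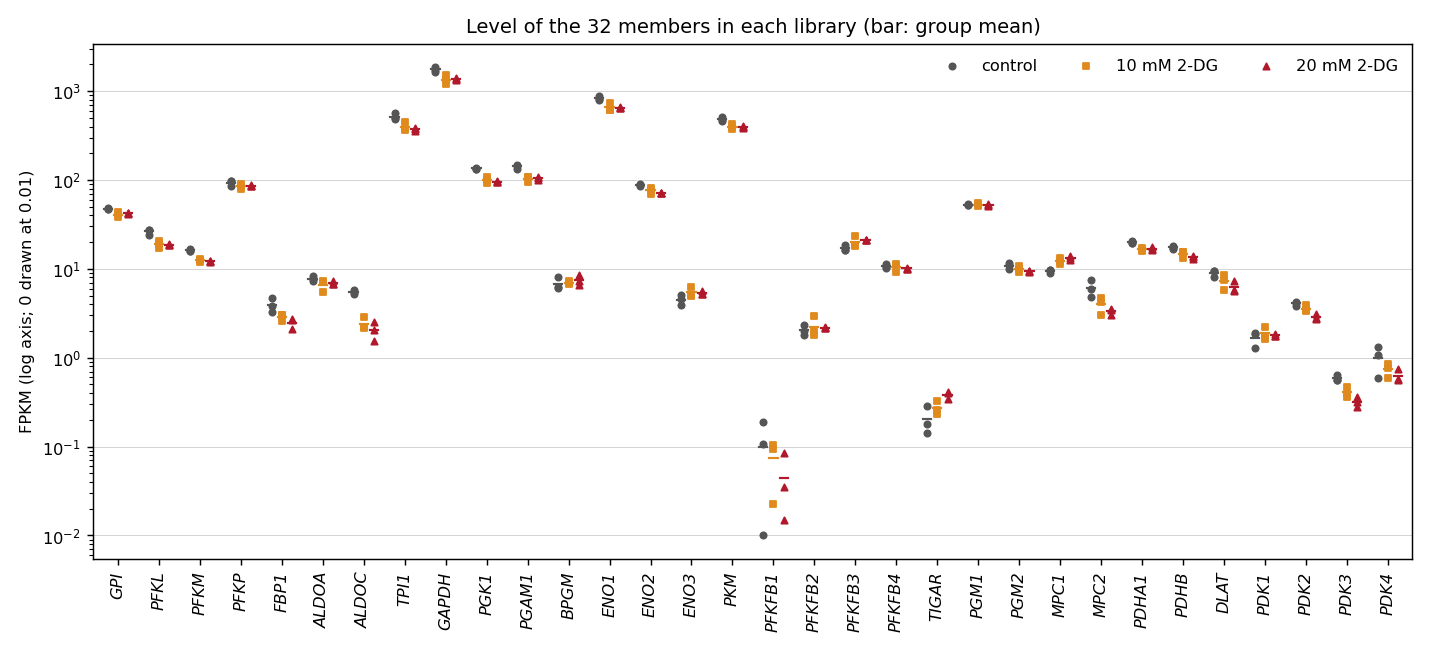
FPKM of each of the 32 members (log axis) in the 3 control libraries (grey circles), the 3 libraries at 10 mM 2-DG (orange squares) and the 3 at 20 mM 2-DG (red triangles), with a bar at each group mean. GAPDH, ENO1, TPI1 and PKM sit at the top of the range, and PFKFB1, with 0 reads in 1 control library drawn at 0.01, at the bottom.

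The first question was which of these genes changed in cells given 2-DG, a compound known to block the entry to glycolysis. At 10 mM 2-DG, 15 of the 31 tested members fell and 1 rose against the control at a Benjamini-Hochberg adjusted p under 0.05 in limma's test, which used log2(FPKM + 1) and all 9 libraries. Over all genes tested the same rule called 17.5% lower and 12.1% higher. At 20 mM 2-DG, 18 members fell and 3 rose, where 21.6% of all genes were lower and 15.3% higher. The members' median log2 fold change was -0.21 at 10 mM and -0.28 at 20 mM, against -0.01 and -0.02 over all genes. In 16 tested members every 10 mM library lay below every control library, and in 1 above, against 22.7% and 17.8% of all genes. At 20 mM 19 lay wholly below and 4 wholly above, against 29.9% and 23.3%. Both comparisons with the control use the same 3 control libraries, so they are not independent of each other. The study's methods name an unadjusted p under 0.05 and a log2 fold change beyond 1 in size. Applied here on the log2(FPKM + 1) scale, these thresholds passed 0 members at 10 mM, although 17 reached a limma p below 0.05 before adjustment. At 20 mM 1 was lower, ALDOC, and 0 higher. The added 1 understates changes of low genes. For ALDOC at 10 mM the log2 ratio of mean FPKM was -1.19, against -0.93 on this scale. Those thresholds called 1.16% of all genes lower and 0.579% higher at 10 mM, and 1.96% lower and 0.966% higher at 20 mM.

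The 10 mM count depended on the processing: 7 members were lower with median-ratio scaling, which called 15.01% of all genes lower. It was 9 without the filter on low genes and 6 when only the 2 groups compared were fitted. Leaving out a library gave 7 without control replicate 1, 9 without 10 mM replicate 3 and 10 without 20 mM replicate 2. Apart from median-ratio scaling, the share of all genes in these settings is not given here, so those counts cannot be set against it. PFKL, PFKM, ALDOC, PGK1, PGAM1, MPC1 and PDHA1 kept an adjusted p under 0.05 at 10 mM in each of 16 alternative settings of the limma fit, as did 13 of the 21 called at 20 mM in each setting that tested them, namely PFKL, PFKM, FBP1, ALDOC, TPI1, PGK1, PGAM1, ENO2, MPC1, MPC2, PDHB, PDK2 and PDK3. Under the study's thresholds, again on the log2(FPKM + 1) scale, ALDOC alone of these passed, at 20 mM.

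**Figure D2:**
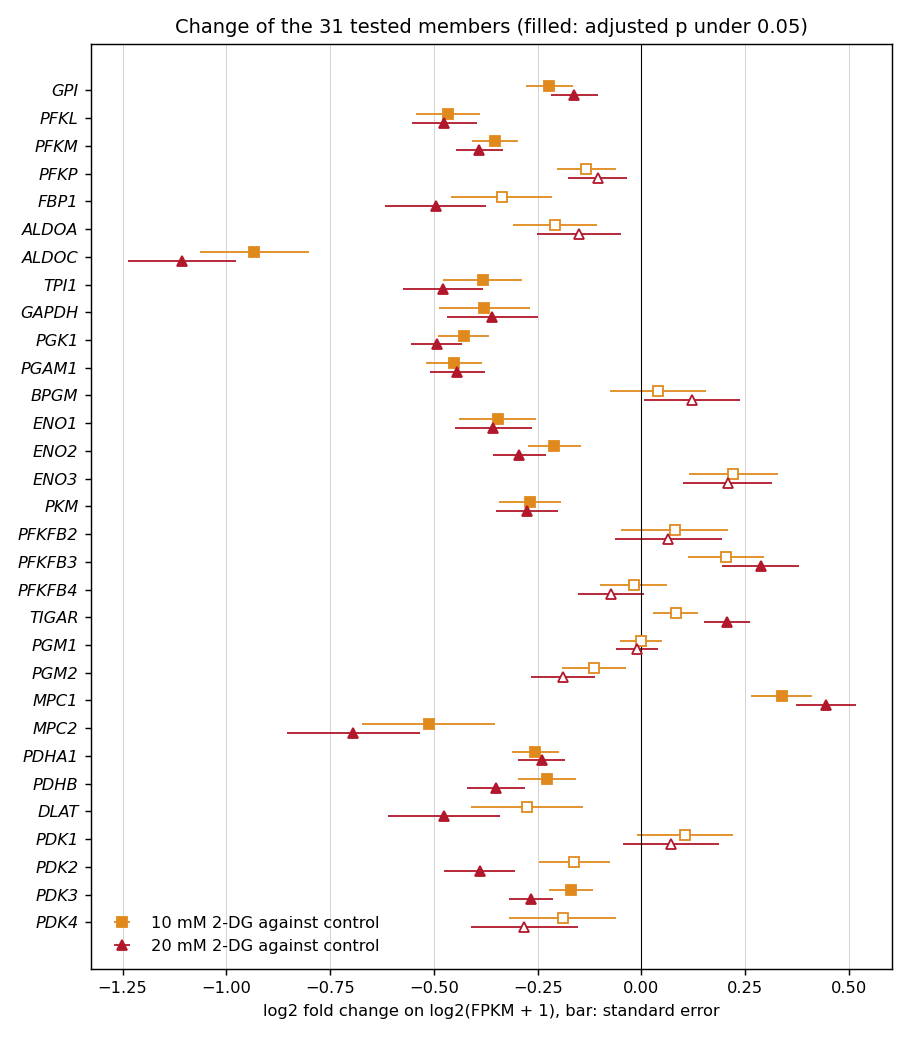
Log2 fold change of the 31 tested members at 10 mM 2-DG (orange squares) and 20 mM 2-DG (red triangles) against the control, on the log2(FPKM + 1) scale, with bars for the standard error. Filled symbols mark an adjusted p under 0.05, and ALDOC lies farthest to the left at -0.93 and -1.11, whereas MPC1 lies farthest to the right at 0.34 and 0.44.

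The 15 enzymes of the glycolytic steps held most of the lower members, with 11 lower, 0 higher and 4 not called at each dose in limma's test. Over all genes tested 17.5% were lower and 12.1% higher at 10 mM, and 21.6% and 15.3% at 20 mM. The median log2 fold change of the 15 was -0.35 at 10 mM and -0.36 at 20 mM, against -0.01 and -0.02 over all genes. The 4 not called were PFKP, ALDOA, BPGM and ENO3. With median-ratio scaling GPI, GAPDH, ENO1 and PKM lost the call at both doses, and TPI1 and ENO2 lost it at 10 mM. Together the 15 genes took 1.72% ± 0.0886 (SD, n = 3) of all reads counted in the control libraries, 1.37% ± 0.119 at 10 mM and 1.36% ± 0.0242 at 20 mM 2-DG.

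The largest change was in ALDOC, which codes for aldolase C, the brain-type form of the enzyme that splits fructose bisphosphate into triose phosphates (ENSG00000109107, chr17:28573115-28577264, minus strand, GRCh38). Its levels were 5.16, 5.80 and 5.51 FPKM in the control, 2.17, 2.88 and 2.19 FPKM at 10 mM and 2.52, 2.05 and 1.54 FPKM at 20 mM 2-DG. Every treated library lay below every control library, and the 2 treated groups overlapped. Mean FPKM fell by 56.1% at 10 mM (log2 fold change -0.93, SE 0.13, adjusted p = 0.000619, limma) and fell by 62.9% at 20 mM (log2 fold change -1.11, SE 0.13, adjusted p = 0.000154, limma). ALDOA, the ubiquitous aldolase, averaged 7.75 FPKM in the control, 6.61 FPKM at 10 mM and 6.88 FPKM at 20 mM and was not called (adjusted p = 0.152 and 0.276, limma). ALDOC accounted for 41.5% ± 0.298 (SD, n = 3) of the summed FPKM of both aldolases in control cells, 27.0% ± 6.48 at 10 mM and 22.7% ± 3.62 at 20 mM. In the GENCODE annotation 42.3% of the exon bases of ALDOA are shared on the same strand with another gene model, AC093512.2, which reached 1.23 FPKM. How reads in shared bases were counted is not given in the sources used here, so the ALDOA level and this share are uncertain.

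Of the 3 phosphofructokinases, which commit sugar to glycolysis, 2 fell at each dose. Over all genes tested 17.5% were lower at 10 mM and 21.6% at 20 mM. PFKL, the liver-type subunit (ENSG00000141959, chr21:44300051-44327376, plus strand), measured 27.5, 27.6 and 24.3 FPKM in the control, 18.9, 20.8 and 17.0 FPKM at 10 mM and 18.6, 18.7 and 18.8 FPKM at 20 mM. The treated libraries were all below the controls, and the 20 mM libraries lay close together. Mean PFKL fell by 28.5% at 10 mM (adjusted p = 0.00179, limma) and fell by 29.2% at 20 mM (adjusted p = 0.00116, limma). PFKM, the muscle-type subunit, fell by 23.0% at 10 mM (adjusted p = 0.00134, limma) and fell by 25.2% at 20 mM (adjusted p = 0.000536, limma). PFKP, the platelet-type subunit and the most abundant of the family, averaged 93.1 ± 7.04 FPKM (SD, n = 3) without 2-DG, 84.8 ± 5.83 FPKM at 10 mM and 86.3 ± 1.37 FPKM at 20 mM. Its groups overlapped and it was not called (adjusted p = 0.191 and 0.283, limma). Its part of the summed phosphofructokinase FPKM was 68.5% ± 0.659 in control cells, 73.0% ± 0.985 at 10 mM and 73.7% ± 0.504 at 20 mM, with no treated library as low as any control. GPI, the isomerase just upstream, averaged 47.6, 40.7 and 42.4 FPKM across the 3 conditions (adjusted p = 0.0154 at 10 mM and 0.0487 at 20 mM, limma). The 20 mM call of GPI was lost in 12 of 16 alternative settings, with adjusted p up to 0.253. FBP1, the gluconeogenic fructose bisphosphatase that runs the step in reverse, had 3.83, 3.29 and 4.66 FPKM in the control, 2.62, 3.01 and 3.00 FPKM at 10 mM and 2.74, 2.08 and 2.63 FPKM at 20 mM. It was called lower at 20 mM, where its mean fell by 36.8% (log2 fold change -0.50, SE 0.12, adjusted p = 0.00971, limma), and missed the threshold at 10 mM (adjusted p = 0.0619).

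Lower glycolysis carried the most abundant transcripts. GAPDH, the triose phosphate dehydrogenase that is often used as a reference gene (ENSG00000111640, chr12:6533927-6538374, plus strand), measured 1851, 1748 and 1660 FPKM in the control, 1337, 1506 and 1214 FPKM at 10 mM and 1377, 1392 and 1328 FPKM at 20 mM 2-DG. All 6 treated libraries were below the lowest control. Mean GAPDH fell by 22.9% at 10 mM (log2 fold change -0.38, SE 0.11, adjusted p = 0.0261, limma) and fell by 22.1% at 20 mM (log2 fold change -0.36, SE 0.11, adjusted p = 0.0270, limma). Each of these calls was lost in 8 of 16 alternative settings, median-ratio scaling among them, with adjusted p up to 0.0970 at 10 mM and 0.109 at 20 mM. The annotation names 65 GAPDH pseudogenes, whose summed level was at most 1.07% of GAPDH in any library.

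ENO1, the main enolase (ENSG00000074800, chr1:8861000-8879250, minus strand), had 887, 807 and 803 FPKM in the control, 622, 738 and 609 FPKM at 10 mM and 657, 652 and 639 FPKM at 20 mM. Its mean fell by 21.2% at 10 mM (adjusted p = 0.0195, limma) and fell by 22.0% at 20 mM (adjusted p = 0.0137, limma). TPI1, which interconverts the triose phosphates (ENSG00000111669, chr12:6867119-6870948, plus strand), had 562, 501 and 490 FPKM in the control, 368, 454 and 371 FPKM at 10 mM and 371, 381 and 360 FPKM at 20 mM. For ENO1 and TPI1, as for GAPDH, the treated and control libraries did not overlap, and 10 mM replicate 2 was the highest treated library. TPI1 fell by 23.1% at 10 mM (adjusted p = 0.0138, limma) and fell by 28.4% at 20 mM (adjusted p = 0.00353, limma). PKM, the pyruvate kinase of most tumour cells, had 512, 476 and 457 FPKM in the control, 395, 426 and 377 FPKM at 10 mM and 406, 397 and 387 FPKM at 20 mM, without overlap between treated and control libraries. PKM fell by 17.0% at 10 mM (adjusted p = 0.0228, limma) and fell by 17.5% at 20 mM (adjusted p = 0.0163, limma). At 10 mM the call was lost in 5 of 16 alternative settings for ENO1 (adjusted p up to 0.0743), in 5 for PKM (up to 0.0990) and in 3 for TPI1 (up to 0.0512), and at 20 mM in 2 for ENO1 (up to 0.0692) and in 4 for PKM (up to 0.0993).

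The steps between GAPDH and enolase differed from the control by well over the spread between libraries. PGK1, the kinase that makes the first ATP of the payoff phase (ENSG00000102144, chrX:77910739-78129296, plus strand), measured 135, 138 and 133 FPKM in the control, 101, 107 and 93.0 FPKM at 10 mM and 95.5, 97.6 and 94.2 FPKM at 20 mM 2-DG. PGAM1, the mutase that follows it (ENSG00000171314, chr10:97426160-97433441, plus strand), measured 147, 145 and 135 FPKM, then 108, 107 and 95.8 FPKM, and then 107, 99.4 and 106 FPKM. In both genes the lowest control exceeded the highest treated library by more than the range of any one group. PGK1 fell by 25.8% at 10 mM (adjusted p = 0.000672, limma) and fell by 29.2% at 20 mM (adjusted p = 0.000200, limma). PGAM1 fell by 27.0% at 10 mM (adjusted p = 0.000844, limma) and fell by 26.7% at 20 mM (adjusted p = 0.000683, limma). BPGM, the related mutase that makes bisphosphoglycerate, averaged 6.84, 7.01 and 7.52 FPKM across the 3 conditions with overlapping groups (adjusted p = 0.830 and 0.444, limma).

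Among the enolases, ENO2, the neuronal form, fell by 13.5% at 10 mM (adjusted p = 0.0327, limma) and fell by 18.7% at 20 mM (adjusted p = 0.00534, limma), from a control mean of 88.3 ± 2.59 FPKM (SD, n = 3). Its 10 mM call was lost in 9 of 16 alternative settings (adjusted p up to 0.107). ENO3, the muscle form, had 5.11, 3.88 and 4.54 FPKM in the control, 4.98, 6.27 and 5.02 FPKM at 10 mM and 5.16, 5.61 and 5.25 FPKM at 20 mM. The 20 mM libraries of ENO3 were just above the highest control, but the gene was not called (adjusted p = 0.152 and 0.159, limma). ENO3 shares 111 exon bases on the opposite strand with PFN1, a gene at up to 955 FPKM, and use of strand in the counting is not stated, so its level is uncertain.

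**Figure D3:**
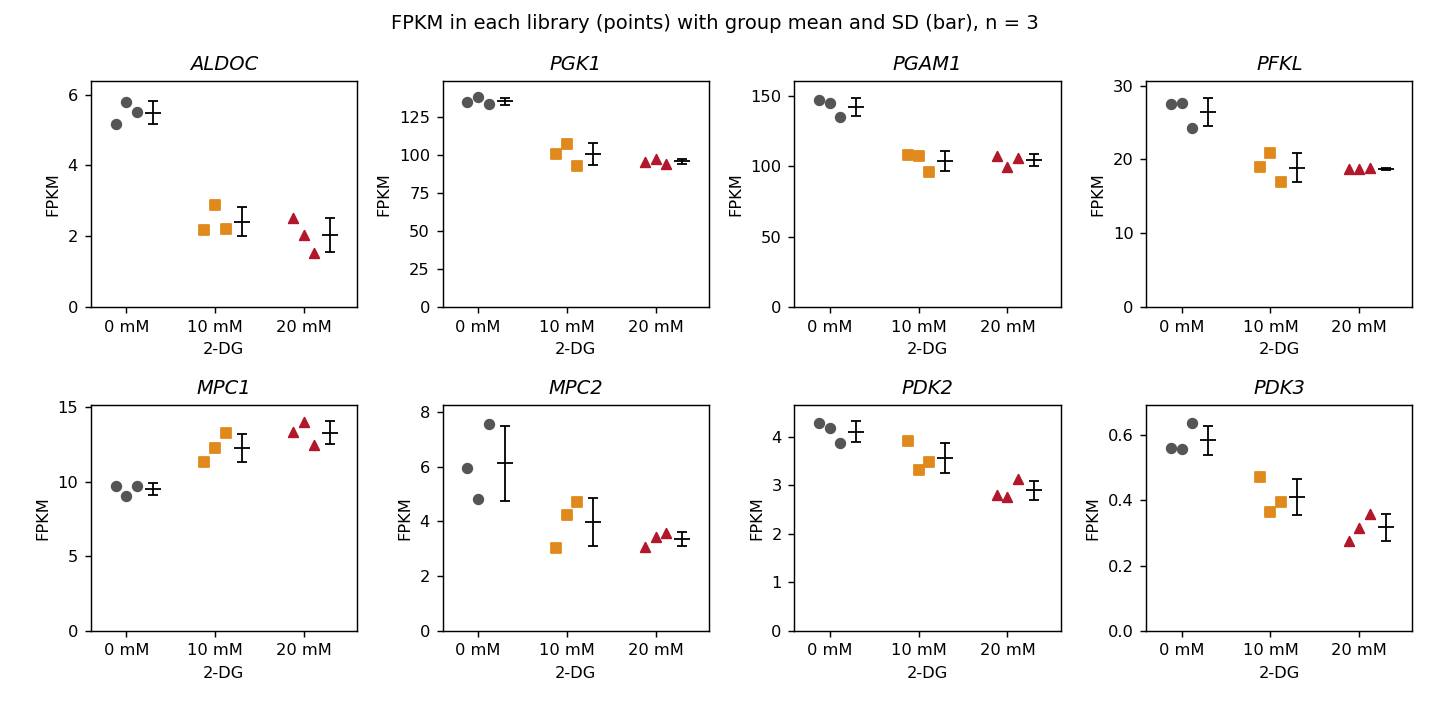
FPKM (linear axes from 0) of ALDOC, PGK1, PGAM1, PFKL, MPC1, MPC2, PDK2 and PDK3 in each library at 0 mM (grey), 10 mM (orange) and 20 mM (red) 2-DG, with the group mean and SD (n = 3) beside the points. The control points of ALDOC, PGK1, PGAM1, PFKL, MPC2 and PDK3 lie above all treated points, those of MPC1 lie below them, and for PDK2 the 10 mM libraries reach into the control range.

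Since several of these genes moved together, their promoters were read from RefSeq (GRCh38.p14), taking the 250 bases before 1 listed start per gene. Some of these starts lie inside the GENCODE gene, so such a window is not upstream of the whole gene. The GAPDH window, for example, is chr12:6535014-6535263, in a gene that GENCODE starts at 6533927. Of the 32 members 31 matched, all but PFKFB2. The letters ACGTG, the core of the element that hypoxia-inducible factors are known to bind, were searched on both strands and were present in 12 of the 31 windows (38.7%), against 18.5% of all 35116 promoters and 22.0% of the 16411 promoters of tested genes. The sites of the members that were lower at 20 mM and of TIGAR, which was higher, are shown with 8 bases on each side, 5′ to 3′ on the strand of the gene, and capitals mark ACGTG or its reverse complement.
ALDOC, chr17:28577122-28577143, minus strand: gtgcccggCACGTGgtaaaggg
ALDOC, chr17:28576911-28576931, minus strand: ggaggagtCACGTagctctgc
PGK1, chrX:78104038-78104058, plus strand: cgtgccggACGTGacaaacgg
PGK1, chrX:78104057-78104077, plus strand: ggaagccgCACGTctcactag
GAPDH, chr12:6535175-6535196, plus strand: tgcggggtCACGTGtcgcagag
ENO2, chr12:6914454-6914474, plus strand: gcgctcgtACGTGcgcctccg
GPI, chr19:34364822-34364842, plus strand: tgcctgtaACGTGgaaggtgt
PDHB, chr3:58434055-58434076, minus strand: cgaccaggCACGTGtgcccagc
PDHB, chr3:58433852-58433872, minus strand: ggcctgctCACGTctgccggc
DLAT, chr11:112025365-112025385, plus strand: ttacgacaACGTGcggctgtg
PDK3, chrX:24465217-24465237, plus strand: cgccgcgtACGTGcagcaacc
TIGAR, chr12:4321134-4321154, plus strand: cggggatgACGTGcgaggccg
ALDOC, PGK1 and PDHB held a pair of sites each, and so did PGM2, which was not called. The sites of PGM2, ALDOA and BPGM, none of them called at 20 mM, are not shown. In ALDOC, GAPDH, PDHB and PGM2 1 site is the palindrome CACGTG, the E-box, which contains ACGTG. This palindrome was found in 4 of the 31 windows (12.9%), against 6.34% of all promoters and 8.10% of those of tested genes. Of the 12 tested members with ACGTG, 8 were lower at 20 mM 2-DG, and of the 18 tested members without it, 10 were lower. TGATGNAAT, the letters of the C/EBP-ATF response element, and the consensus of the ER stress response element were each in 0 of the 31 windows, against 0.888% and 0.0740% of all promoters and 0.506% and 0.104% of those of tested genes. These are matches of letters in a short window and not measured binding sites.

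The GC box GGGCGG, the letters bound by SP1, was found on either strand in 21 of the 31 windows (67.7%), against 42.6% of all promoters and 61.9% of those of tested genes. PFKL codes for a phosphofructokinase and PFKFB3 for a regulator of that step. At 20 mM PFKL fell whereas PFKFB3 rose, the latter a call lost in 7 of 16 alternative settings. The windows of both genes are shown in full, with capitals on GGGCGG or its reverse complement, some of which overlap in PFKL.
PFKL, chr21:44299803-44300052, plus strand: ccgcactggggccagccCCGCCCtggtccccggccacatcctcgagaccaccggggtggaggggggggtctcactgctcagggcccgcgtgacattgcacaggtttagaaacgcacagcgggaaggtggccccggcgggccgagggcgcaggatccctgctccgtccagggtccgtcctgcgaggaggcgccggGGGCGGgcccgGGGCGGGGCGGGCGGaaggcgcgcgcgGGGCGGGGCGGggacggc
PFKFB3, chr10:6144671-6144920, plus strand: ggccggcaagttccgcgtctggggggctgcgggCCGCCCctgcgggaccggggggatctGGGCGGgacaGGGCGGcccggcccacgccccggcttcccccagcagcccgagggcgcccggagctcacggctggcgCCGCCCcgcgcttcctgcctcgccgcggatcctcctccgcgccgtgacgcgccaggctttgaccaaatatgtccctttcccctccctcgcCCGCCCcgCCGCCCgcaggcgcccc
PFKL held 7 matches and PFKFB3 6, and GC content was 78.0% and 79.2%.

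Of the 4 regulators of phosphofructokinase that could be tested, 0 were called at 10 mM in limma's test (0 with an unadjusted p below 0.05, and 0 by limma-voom), and 2 rose at 20 mM. Over all genes tested 12.1% were higher and 17.5% lower at 10 mM, and 15.3% and 21.6% at 20 mM. PFKFB3, whose strong kinase activity makes the allosteric activator of phosphofructokinase, had 16.4, 18.5 and 16.5 FPKM in the control, 23.3, 17.9 and 18.8 FPKM at 10 mM and 21.0, 20.9 and 21.4 FPKM at 20 mM. The 20 mM libraries were close together and above each control, whereas 10 mM replicate 2 fell within the control range. Mean PFKFB3 was 23.1% higher at 20 mM (log2 fold change 0.29, SE 0.09, adjusted p = 0.0338, limma), a call lost in 7 of 16 alternative settings (adjusted p up to 0.0984). At 10 mM it was called higher only in the fit without 10 mM replicate 2 (log2 fold change 0.28, adjusted p = 0.0486, limma).

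TIGAR, a phosphatase that removes the same activator and is known as a p53 target, was a low gene with 48 to 92 reads per control library, 84 to 108 at 10 mM and 101 to 150 at 20 mM. Its levels were 0.143, 0.179 and 0.284 FPKM in the control, 0.325, 0.231 and 0.259 FPKM at 10 mM and 0.345, 0.399 and 0.410 FPKM at 20 mM. The 20 mM libraries were above all 6 others. Mean FPKM was 90.4% higher at 20 mM than in the control, which on the log2(FPKM + 1) scale was a fold change of 0.21 (SE 0.05, adjusted p = 0.0148, limma), since the added 1 understates changes of low genes. The call was lost without control replicate 1 and without the filter on low genes (adjusted p up to 0.0675). In the annotation 42.6% of the exon bases of TIGAR are shared on the same strand with AC008012.1, which was at most at 0.00847 FPKM. The length that fitted the TIGAR values, 9444 bases, differs from the 4017 there, so the gene model counted may differ.

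PFKFB4 averaged 10.7, 10.6 and 10.1 FPKM and PFKFB2 2.04, 2.24 and 2.17 FPKM across the 3 conditions, and neither was called. The ratio of PFKFB3 to PFKFB4 was 1.60 ± 0.0536 (SD, n = 3) in control cells, 1.90 ± 0.229 at 10 mM and 2.09 ± 0.0551 at 20 mM. PGM1, which links glucose phosphates to glycogen, averaged 52.9, 52.9 and 52.5 FPKM and was among the least changed members (log2 fold change -0.01 at 20 mM, SE 0.05, adjusted p = 0.897, limma). PGM2, a phosphopentomutase, averaged 10.8, 9.94 and 9.37 FPKM, and its adjusted p was 0.293 at 10 mM and 0.0783 at 20 mM.

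**Figure D4:**
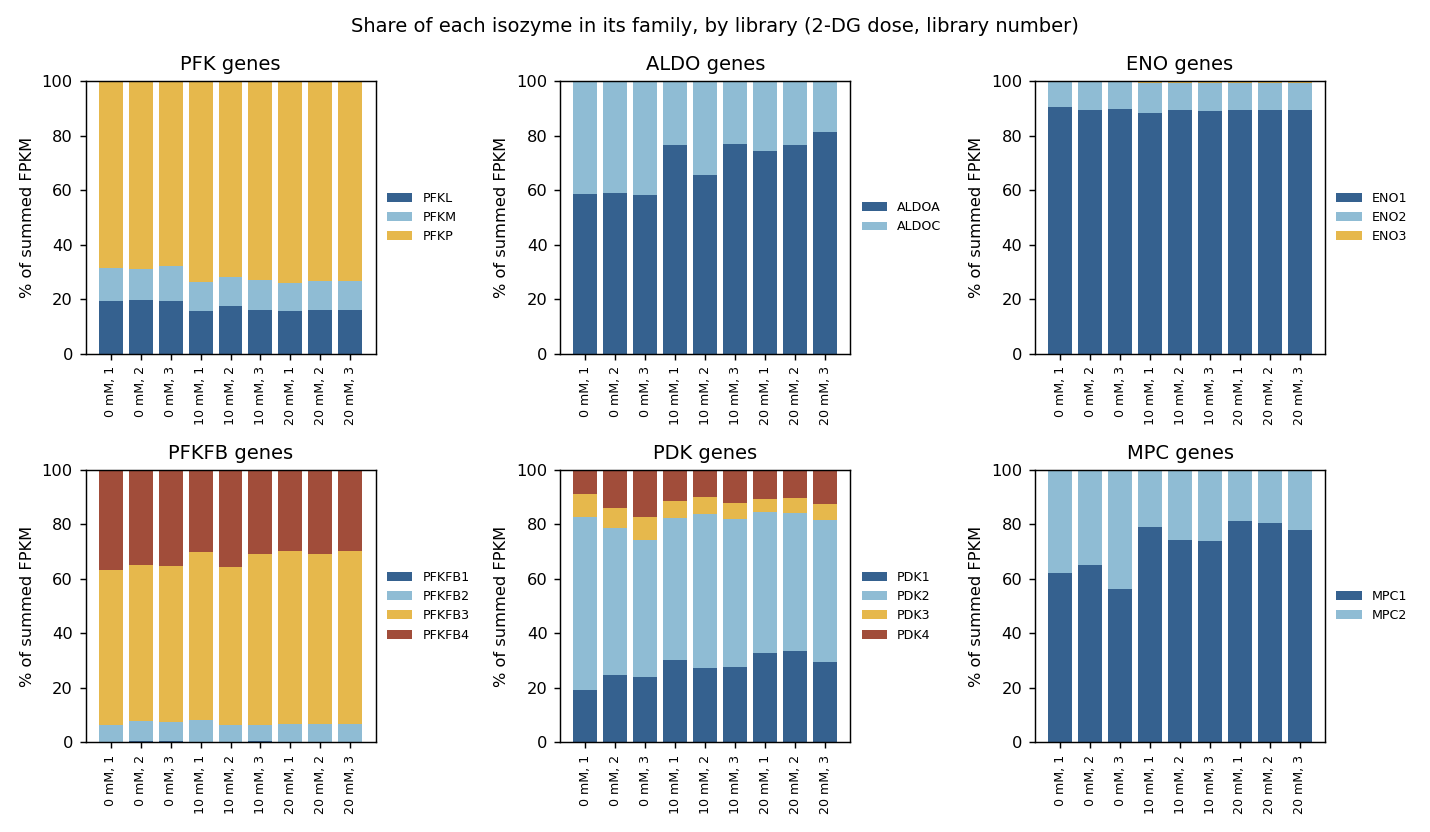
Share of each gene in the summed FPKM of its family (percent) for the phosphofructokinase, aldolase, enolase, PFKFB, PDK and MPC genes, with 1 bar per library labelled by 2-DG dose and library number. The ALDOC part shrank from 41.5% in the control to 22.7% at 20 mM and the MPC2 part from 38.9% to 20.2%, whereas ENO3 and PFKFB1 are too small to see.

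Both subunits of the mitochondrial pyruvate carrier changed, in opposite directions. The carrier is known to work as a complex of MPC1 and MPC2. MPC1 (ENSG00000060762, chr6:166364919-166383013, minus strand) had 9.74, 9.04 and 9.71 FPKM in the control, 11.3, 12.3 and 13.2 FPKM at 10 mM and 13.4, 14.02 and 12.5 FPKM at 20 mM 2-DG. MPC2 (ENSG00000143158, chr1:167916729-167937040, minus strand) had 5.97, 4.82 and 7.57 FPKM in the control, 3.01, 4.24 and 4.70 FPKM at 10 mM and 3.06, 3.42 and 3.57 FPKM at 20 mM. Treated and control libraries did not overlap for either gene, although the control libraries of MPC2 were widely spread. MPC1 was 29.3% higher at 10 mM (log2 fold change 0.34, SE 0.07, adjusted p = 0.00683, limma) and 39.9% higher at 20 mM (log2 fold change 0.44, SE 0.07, adjusted p = 0.00113, limma). It was the 1 member called higher at 10 mM. MPC2 fell by 34.9% at 10 mM (log2 fold change -0.51, SE 0.16, adjusted p = 0.0368, limma) and fell by 45.3% at 20 mM (log2 fold change -0.69, SE 0.16, adjusted p = 0.00729, limma).

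The ratio of MPC1 to MPC2 was 1.63, 1.87 and 1.28 in the control libraries, 3.77, 2.89 and 2.82 at 10 mM and 4.37, 4.10 and 3.50 at 20 mM. It was thus higher in each treated library than in any control. The 10 mM call of MPC2 was lost in 9 of 16 alternative settings (adjusted p up to 0.124), whereas its 20 mM call and both calls of MPC1 were kept in all 16, although neither gene passed the study's thresholds. MPC2 shares 22.5% of its exon bases on the opposite strand with DCAF6, a gene at up to 11.8 FPKM, and strand use in the counting is not stated.

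The members that code for pyruvate dehydrogenase were lower at 20 mM 2-DG. PDHA1 and PDHB code for both chains of the decarboxylase and DLAT for the acetyltransferase core of the complex. In limma's test 2 of the 3 were lower at 10 mM, where 17.5% of all genes were, and all 3 at 20 mM, where 21.6% were, with 0 higher. Of the complex's subunits outside the members, PDHX was not called at either dose (adjusted p = 0.1745 and 0.152, limma). DLD was called lower at 10 mM only (adjusted p = 0.0375 and 0.0629, limma). PDHA1 averaged 20.0 ± 0.728 FPKM (SD, n = 3) in the control, 16.6 ± 0.692 FPKM at 10 mM and 16.8 ± 0.548 FPKM at 20 mM (adjusted p = 0.00810 and 0.00829, limma). PDHB averaged 17.5 ± 0.717, 14.8 ± 1.23 and 13.5 ± 0.454 FPKM (adjusted p = 0.0338 and 0.00335, limma), and its 10 mM call was lost in 11 of 16 alternative settings (adjusted p up to 0.104). DLAT averaged 8.98 ± 0.842, 7.32 ± 1.41 and 6.20 ± 0.905 FPKM, was not called at 10 mM (adjusted p = 0.158) and fell at 20 mM (log2 fold change -0.48, SE 0.14, adjusted p = 0.0202, limma). The 20 mM call of DLAT was lost in 5 of 16 alternative settings, with adjusted p up to 0.0743.

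Of the 4 pyruvate dehydrogenase kinases, which inactivate the complex, 1 was lower at 10 mM, where 17.5% of all genes were, and 2 at 20 mM, where 21.6% were, with 0 higher. PDK2, a widely expressed form (ENSG00000005882, chr17:50094737-50112152, plus strand), had the highest FPKM, a ranking that rests on the gene lengths used. PDK1 held more recovered reads in each condition (2657, 3056 and 2781, against 2394, 2147 and 1642 for PDK2). The lengths used were 14845 bases for PDK1 and 5471 for PDK2. PDK2 had 4.28, 4.17 and 3.87 FPKM in the control, 3.91, 3.32 and 3.48 FPKM at 10 mM and 2.81, 2.76 and 3.12 FPKM at 20 mM. The 20 mM libraries were below all others, and the 10 mM libraries reached into the control range. PDK2 fell by 29.4% at 20 mM (log2 fold change -0.39, SE 0.09, adjusted p = 0.00568, limma) and was not called at 10 mM (adjusted p = 0.187). PDK3 (ENSG00000067992, chrX:24465221-24541862, plus strand) had 0.561, 0.556 and 0.636 FPKM in the control, 0.471, 0.363 and 0.395 FPKM at 10 mM and 0.276, 0.317 and 0.359 FPKM at 20 mM. The 3 groups of PDK3 did not overlap each other. Its mean fell by 29.9% at 10 mM (log2 fold change -0.17, SE 0.05, adjusted p = 0.0369, limma) and fell by 45.8% at 20 mM (log2 fold change -0.27, SE 0.05, adjusted p = 0.00331, limma). The 10 mM call of PDK3 was lost in 10 of the alternative settings, with adjusted p up to 0.189.

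PDK1, the kinase best known as a hypoxia-induced gene, had 1.30, 1.91 and 1.83 FPKM in the control, 2.24, 1.61 and 1.78 FPKM at 10 mM and 1.78, 1.85 and 1.78 FPKM at 20 mM, with overlapping groups (adjusted p = 0.542 and 0.673, limma). PDK4, the kinase linked to fasting, had 0.595, 1.08 and 1.33 FPKM in the control and 0.575, 0.564 and 0.746 FPKM at 20 mM. Control replicate 1 of PDK4 lay in the treated range. PDK4 was not called (adjusted p = 0.303 and 0.115, limma). Over the limma fits that left out 1 library, its adjusted p ran from 0.0318 to 0.720 at 10 mM and from 0.00890 to 0.351 at 20 mM. The lowest values came without control replicate 1, where PDK4 was called lower at both doses. The PDK1 part of the 4 kinases' summed FPKM was 22.6% ± 2.92 (SD, n = 3) in control cells, 28.4% ± 1.43 at 10 mM and 31.98% ± 2.13 at 20 mM.

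A dose difference was not found for the members. Between 20 mM and 10 mM 2-DG, 0 of 31 members were called by limma, with 2 below 0.05 before adjustment, and 0 were called by limma-voom. Over all genes tested 0.0% were called in either direction, and 1140 genes were below 0.05 before adjustment. The study's thresholds gave 0 members, against 0.00603% of all genes higher and 0.0% lower. The members' log2 differences lay between -0.23 (PDK2) and 0.12 (TIGAR), with a lowest adjusted p of 0.627. The SE of the difference was 0.09 for PDK2 and 0.05 for TIGAR. The 20 mM libraries lay wholly below the 10 mM libraries for PDK2 and PDK3 and wholly above for TIGAR, where 7.15% of all genes were wholly lower and 4.71% wholly higher. A missed threshold does not show that the doses had equal effects.

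The neighbouring steps of the pathway were given by a list of 28 other genes (glucose carriers, hexokinases, tissue-restricted isozymes, lactate enzymes and carriers, remaining dehydrogenase subunits and phosphatases, and pyruvate carboxylation), of which 18 could be tested. At 10 mM 2-DG, 5 of the 18 rose and 6 fell, and at 20 mM 6 rose and 6 fell, at an adjusted p under 0.05 in limma's test. Over all genes that rule called 12.1% higher and 17.5% lower at 10 mM, and 15.3% higher and 21.6% lower at 20 mM. On the log2(FPKM + 1) scale the largest rises at 20 mM were in PCK2, the mitochondrial PEP carboxykinase (log2 fold change 0.95), SLC2A3, the high-affinity glucose carrier (0.84), and PC, which carboxylates pyruvate (0.69). That scale understates SLC16A1, a lactate and pyruvate carrier at low level, which rose from a mean of 0.0866 FPKM in control cells to 0.439 FPKM at 20 mM (adjusted p = 0.00166, limma). The largest falls on the same scale were in HK2, the inducible hexokinase (-0.67), LDHB (-0.58) and LDHA (-0.47), the lactate dehydrogenase genes. FBP2, PGK2, PGAM2 and PDHA2 were listed at 0 in all libraries, and GAPDHS, PGAM4, ENO4, PKLR and PGM5 were below the filter at 0.107 FPKM or less. Most of these are tissue-restricted forms of the enzymes.

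Because many glycolytic genes are hypoxia targets, 12 hypoxia-inducible genes outside the pathway were also read. At 20 mM 2-DG, 6 of the 12 rose (VEGFA, NDRG1, ANKRD37, P4HA1, KDM3A and LOX) and 2 fell (CA9 and EGLN3) in limma's test, and at 10 mM 4 rose and 1 fell. The share of all genes called higher was 15.3% at 20 mM and 12.1% at 10 mM, and the share of all genes called lower was 21.6% and 17.5%. Their median log2 fold change was 0.12 at 10 mM and 0.21 at 20 mM, whereas that of the members was negative at each dose. No test of the difference between these lists was run.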

How the data were processed

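RNA from 9 MDA-MB-231 libraries was sequenced by the study on an Illumina NovaSeq instrument after extraction with a Qiagen kit. The authors deposited FPKM values, 1 file per library. The submitters' processing notes name GRCh38, while aligner, counter, annotation release and use of strand are not given in the sources used here. The study used a count-based tool, which FPKM values cannot feed, so limma 3.58.1 (R 4.3.3) was applied to log2(FPKM + 1), with a variance trend, all 9 libraries in 1 fit, replicate numbers left out, and p-values adjusted by Benjamini-Hochberg over 16571 genes. The limma step was tested on simulated data with larger changes than most members had. That test does not show how it handles smaller changes. Fold changes on this scale understate changes of low genes, so percent changes of mean FPKM are also given.

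Whole reads were recovered from the FPKM steps (tolerance 0.001), and a length was found for 32806 of 32806 genes above 0. The GENCODE 29 exon length fitted for 16046 of them, and for 16760 a fitting length was searched for. The gene models counted can thus differ from GENCODE 29. For TIGAR and PDK3 the lengths used were 9444 and 17456 bases, against 4017 and 4951. Shares of exon bases refer to GENCODE 29. The recovered reads are not the authors' counts. A gene was tested if 3 or more libraries held 10 or more reads (scaled to the median depth) and its sum over libraries was 15 or more. Gene positions are from GENCODE 29 and promoters from RefSeq.

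The members and gene lists were chosen with earlier results of these data known. By rule, values of every library were to be given for members called with a log2 fold change of at least 0.5 in size, for the 3 most abundant and for those below the filter. The other members given by library were chosen after their values were seen. In the list of neighbouring steps, 1 gene below the filter is not reported here. Alternatives were median-ratio scaling, a pseudocount of 0.1, no filter, FPKM of at least 1 in 3 libraries, limma-voom on recovered reads, fitting only the 2 groups compared, a replicate block, the study's thresholds, and leaving out each library.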

Additional observations from a re-analysis of the deposited data

How the results depend on the processing

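At 10 mM 2-DG the 15 lower members became 7 with median-ratio scaling, which called 15.01% of all genes lower. They became 9 without the filter, 6 when only the 2 groups compared were fitted, and between 7 (without control replicate 1) and 14 when 1 library was left out. The 1 higher member became 2 without 10 mM replicate 2, and 1 to 2 over all libraries left out. At 20 mM the 18 lower members became 13 with median-ratio scaling, which called 18.45% of all genes lower, and 14 to 18 when a library was left out. The 3 higher members became 1 without the filter and 1 to 3 when a library was left out (1 without control replicate 1). Under the study's thresholds on the log2(FPKM + 1) scale the counts were 0 higher and 0 lower at 10 mM and 0 higher and 1 lower at 20 mM. The cause was not tested, except that fewer libraries enter the fits that leave some out. Between the doses 0 members were called in each setting. Some members that were not called changed sign. With median-ratio scaling PGM1 was at 0.0361 at 10 mM and 0.0442 at 20 mM on the log2 scale and PFKFB4 at 0.0153 at 10 mM. When a library was left out, the 10 mM values ran from -0.0279 to 0.0229 for PGM1, -0.0750 to 0.0631 for PFKFB4, -0.0667 to 0.177 for PFKFB2, -0.00223 to 0.171 for PDK1 and -0.0290 to 0.157 for BPGM, and the 20 mM values from -0.0303 to 0.00988 for PGM1 and -0.0356 to 0.134 for PDK1. No called member changed sign in any setting. With limma-voom on recovered reads 15 members were lower and 1 higher at 10 mM, and 17 lower and 3 higher at 20 mM. With the replicate block 12 members were lower and 1 higher at 10 mM, and 16 lower and 2 higher at 20 mM. Libraries with the same number correlated at -0.406 to 0.293 in their deviations from the group mean, 4 of 9 pairs below 0. Control replicate 1 and 10 mM replicate 2, with different numbers, reached 0.521. With 3 libraries per condition these values cannot decide whether the numbers pair the samples. Depth limits PFKFB1 and TIGAR most, and precision otherwise rests on 3 libraries per condition.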
